A study of Mus musculus with 2 samples.

Results

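The genes that make, receive and restrain WNT signals were examined in DNase-seq of the aged mouse ovary. Members were the protein-coding genes of GENCODE M21 whose symbol is Wnt, Fzd, Rspo, Dkk, Sfrp or Axin followed by a digit, together with Ctnnb1, Lef1, Lrp5, Lrp6, Tcf7l1, Tcf7l2, Znrf3 and Rnf43. The rule used symbols only, and it gave 51 of 21728 protein-coding genes, counted over autosomes and X. They fell into 19 WNT ligands, 12 receptors, 4 R-spondins, 8 secreted inhibitors, 4 genes for turnover of the receptors and of β-catenin, and 4 nuclear effectors.

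DNase-seq maps open chromatin, because DNase I cuts DNA that is free of nucleosomes and the cut ends are sequenced; short protected stretches inside an open site are called footprints. The tissue was whole ovary of adult female B6CASTF1/J mice, hybrids of C57BL/6 and CAST, aged 18 to 20 months. The series has 1 group with 2 libraries, named replicate 1 and replicate 2 in the labels, and no second condition, so no change with age, cell type or treatment was tested. Both have the same donor entry but different biosample entries in the labels, which do not say whether 2 animals were used, so the spread between them may be technical.

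WNT proteins are secreted ligands that bind Frizzled receptors together with the co-receptors Lrp5 and Lrp6, which stops the degradation of β-catenin, the product of Ctnnb1. β-Catenin then enters the nucleus and acts with TCF/LEF proteins at target genes. R-spondins raise receptor levels by holding back the ubiquitin ligases Znrf3 and Rnf43, while Sfrp and Dkk proteins block ligands or co-receptors outside the cell; in the ovary, Wnt4 and Rspo1 are known for their roles in female gonad development.

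Peak strength is the authors' depth-scaled signal, with a smallest step of 0.0108 for replicate 1 and 0.00782 for replicate 2 (ratio 1.38), and the number of reads is unknown. There were 95898 and 83982 peaks in the longer lists. Of the ovarian marker genes, all 4 of granulosa cells (Foxl2 at 3.81 and 4.28), all 4 of theca and luteal cells (Star at 4.5 and 7.15), all 3 of stroma and both of smooth muscle had promoter peaks in both libraries, as did 2 of 3 of surface epithelium and 1 of 2 of endothelium. None of the 3 oocyte, 2 macrophage or 2 liver markers had a promoter peak in either library. In a whole organ, fewer cells with an open site and a less open site in each cell cannot be told apart.

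Short stretches of reference sequence (RefSeq, build GRCm38, plus strand) are shown first, because several results below turn on them. The letters CTTTGAT, a core recognised by TCF/LEF proteins, were found on either strand in 4 regions of the member genes that were open in both libraries, and the related letters CTTTGTT, which SOX proteins also recognise, lay in the Fzd7 promoter region. The matches are in capitals with 11 bases on either side.
Axin2 TCF/LEF match, chr11:108920416-108920444: agccggctgcgCTTTGATaaggtcctggc
Znrf3 TCF/LEF match, chr11:5297278-5297306: cctggcaagtgATCAAAGctctgaagcca
Rnf43 TCF/LEF match, chr11:87689542-87689570: atggaagggctCTTTGATaatatctgacg
Lrp6 TCF/LEF match, chr6:134567338-134567366: gacgtaggaaaATCAAAGtgccattgcgg
Fzd7 TCF/LEF or SOX match, chr1:59482006-59482034: tccacagagaaAACAAAGcgcgctattgg

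A gene was counted as open at its promoter where a peak lay within 500 bp of any of its annotated starts, and its promoter signal was that of the strongest such peak. Of the 51 members, 36 (70.6%) were open in both libraries, against 62.3% of all protein-coding genes. At the annotated 5′ end alone, 33 (64.7%) were open in both, against 56.6% of all genes. The members' share was above that of all genes by either count, and no test of the difference was made. With the shorter, stricter peak lists 27 members (52.9%) were open, against 57.9% of all genes, so the order of the shares turned over.

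Open member promoters had a lower median signal than open genes at large. The median promoter signal of the 36 open members, as the mean of both libraries, was 1.6, with a range from 0.336 to 8.71, while the 13527 open genes of the whole genome had a median of 4.03. With the shorter lists the medians were 3.27 for 27 members and 4.39 for 12590 genes, a smaller gap. These lists are not a plain cut on signal. In replicate 1 the shorter list lacks the Lrp5 promoter peak at 1.29 but keeps that of Fzd6 at 0.710. The roles differed in both respects. All 12 receptors, all 4 turnover genes and all 4 nuclear genes were open in both libraries, with median signals of 4.28, 6.22 and 4.88. Of the ligands, 10 of 19 were open, with a median of 0.970, of the R-spondins 2 of 4, with a median of 0.484, and of the secreted inhibitors 4 of 8, with a median of 0.950. Genes whose products act outside the cell thus made up all 15 members that were not open in both libraries.

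**Figure D1:**
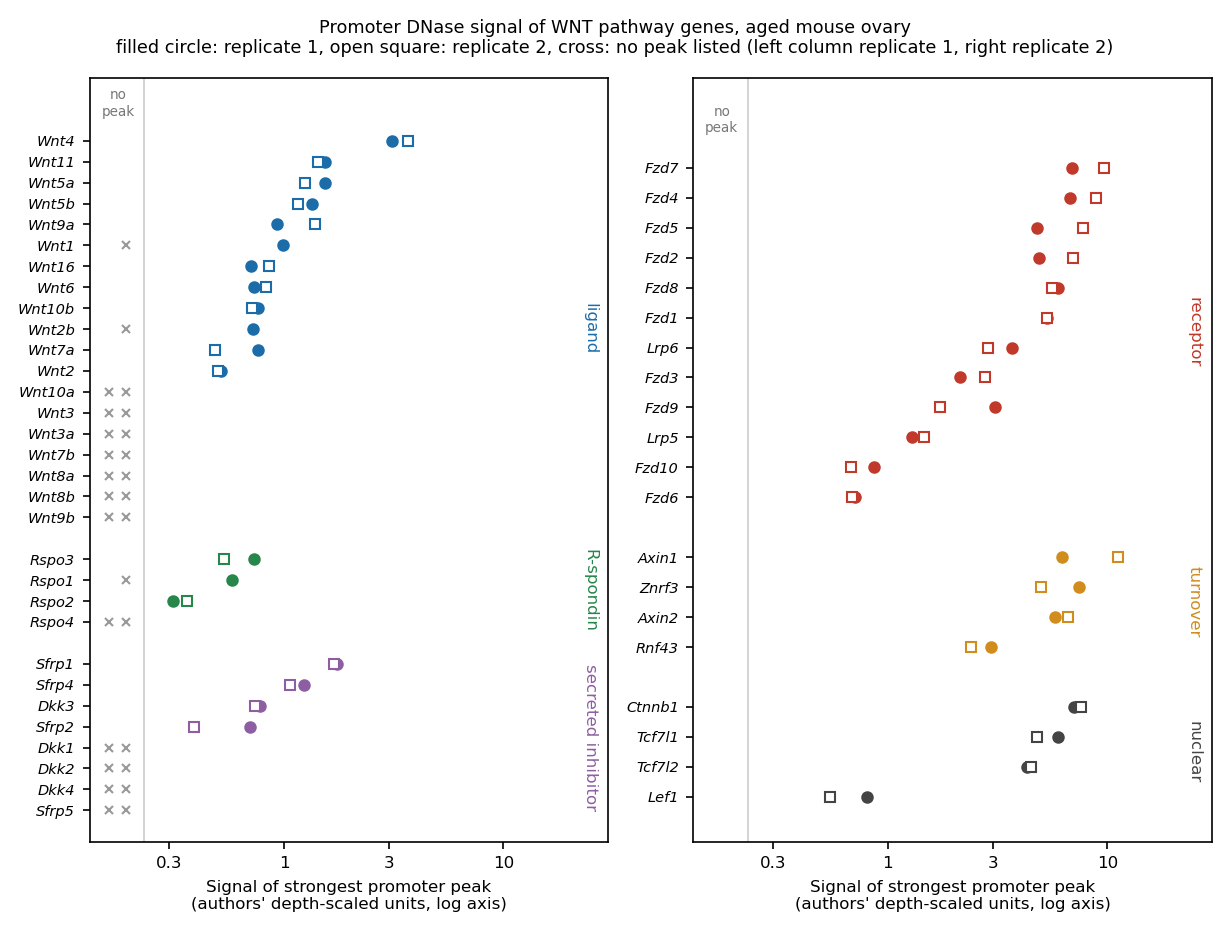
Signal of the strongest promoter peak of each of the 51 members (horizontal log axis, authors' depth-scaled units) in replicate 1 (filled circles) and replicate 2 (open squares), grouped by role; crosses mark a library with no promoter peak listed. The 4 turnover genes and 6 of the Frizzled genes reach 2.40 or more in both libraries, the weaker receptors Lrp5, Fzd10 and Fzd6 overlap the ligands, and crosses fall only on ligands, R-spondins and secreted inhibitors.

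Among the ligands, Wnt4, the ligand known for its role in ovarian differentiation, had the strongest promoter peak, at 3.09 in replicate 1 and 3.66 in replicate 2. The gene lies on the plus strand at chr4:137277489-137299726. No other ligand reached 2 in either library, so the values of Wnt4 did not overlap those of any other. The promoter region of Wnt4 is shown because it is the strongest of the family; capitals mark bases inside footprints of both libraries, and the region ends upstream of the annotated start.
Wnt4 promoter region, chr4:137277241-137277480: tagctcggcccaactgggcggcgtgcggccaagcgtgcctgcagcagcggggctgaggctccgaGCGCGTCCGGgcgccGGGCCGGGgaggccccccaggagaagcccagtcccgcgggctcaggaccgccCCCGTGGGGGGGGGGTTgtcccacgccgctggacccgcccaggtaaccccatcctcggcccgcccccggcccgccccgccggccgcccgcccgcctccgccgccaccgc

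Behind Wnt4, by the mean of both libraries, came 3 ligands of the mainly β-catenin-independent branch. Wnt11 had 1.54 and 1.42, Wnt5a 1.54 and 1.24, and Wnt5b 1.35 and 1.16 in replicates 1 and 2. The strongest peak of each lay at an internal annotated start in both libraries, at 3859 and 3879 bp from the 5′ end for Wnt11, at 731 bp for Wnt5a and at 95096 bp for Wnt5b. Wnt11 also had an intron region at 2959 bp, with 2.57 and 2.21, that was stronger than its promoter. At Wnt5b the internal start belongs to a protein-coding transcript, and at Wnt5a only to a processed transcript. Wnt9a had 0.926 and 1.39, in replicate 2 above Wnt5a and Wnt5b. Wnt16 had 0.710 and 0.852, and Wnt10b 0.764 and 0.711. Wnt7a had 0.764 and 0.485, and Wnt2 0.517 and 0.50. Ranked in each library among the genes with a promoter peak there, Wnt9a, Wnt16, Wnt10b, Wnt7a and Wnt2 stood low. Their mean percentile over the 2 libraries ran from 4.16 for Wnt2 to 16.7 for Wnt9a. By the same measure Wnt11, Wnt5a and Wnt5b were not far above, at 21.8, 20.4 and 18.3, and Wnt4 stood at 45.1.

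Wnt6 was open in both libraries by the rule, at 0.732 and 0.828, but at different starts. Its replicate 1 peak lay 266 bp from the 5′ end and its replicate 2 peak 10501 bp from it, so no promoter region of Wnt6 was shared. Wnt1 (0.990) and Wnt2b (0.721) had a promoter peak in replicate 1 only, and replicate 2 had 0 bases at a false discovery rate under 0.05 within 500 bp of their starts. Wnt3, Wnt3a, Wnt7b, Wnt8a, Wnt8b, Wnt9b and Wnt10a had no promoter peak and 0 such bases in either library. Since only bases under 0.05 are listed, these sites were not detectable at this depth rather than shown to be closed.

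The receptors split into a strong and a weak set. Fzd7 had 6.91 and 9.61, Fzd4 6.75 and 8.91, and Fzd5 4.78 and 7.76. Fzd8 had 5.97 and 5.61, Fzd2 4.90 and 6.99, and Fzd1, a Frizzled known to be raised in ovulatory follicles, 5.30 and 5.31. These 6 Frizzled genes were at 4.78 or more in every library, above all of the other Frizzled genes. The order among the 6 is not firm, since the ranges of Fzd5 and Fzd2 hold the values of Fzd1 and Fzd8. The Fzd4 peak also lies within 500 bp of a start of Tmem135 and cannot be given to either gene alone.

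The other Frizzled genes were lower. Fzd3 had 2.12 and 2.76 and Fzd9 had 3.08 and 1.74, while Fzd10 had 0.861 and 0.680 and Fzd6 had 0.710 and 0.688. Of the co-receptors, Lrp6 had 3.68 and 2.85, but at an internal start 95934 and 95914 bp from the 5′ end that belongs to a retained-intron transcript only; its 5′ end had 2.36 and 2.12. Lrp5 had 1.29 and 1.46. Lrp6 thus exceeded Lrp5 at the 5′ end too, in both libraries.

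The R-spondins had the lowest median promoter signal of the 6 roles. Rspo3 had 0.732 and 0.531 and Rspo2 had 0.312 and 0.360. Among the genes with a promoter peak in each library, Rspo2 had a mean percentile of 0.903. Rspo1, whose loss is known to give partial female-to-male sex reversal, was open at 0.581 in replicate 1 alone; in replicate 2 no promoter peak was called, and 26 bases at its starts were under a false discovery rate of 0.05. Rspo4 had none. The strongest shared region in the Rspo1 window, at 2.83 and 4.59, lay 31221 bp from its 5′ end, and its nearest start is that of Gnl2, 936 bp away.

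Of the secreted inhibitors, Sfrp1 had 1.74 and 1.69 and Sfrp4, an antagonist known in luteal cells, 1.23 and 1.06. Dkk3 had 0.775 and 0.735, and Sfrp2 had 0.700 and 0.391. Dkk1, Dkk2, Dkk4 and Sfrp5 had no promoter peak and 0 bases under a false discovery rate of 0.05 at their starts in either library. In both families, then, some genes were open and others had no peak. The 4 open inhibitors had the same order in both libraries, and their values did not overlap.

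The turnover genes are negative regulators, and Axin2, Znrf3 and Rnf43 are widely known as targets of the pathway itself. Axin1, the scaffold of the β-catenin destruction complex, had 6.22 and 11.2, the highest value of any member in replicate 2. Znrf3 had 7.44 and 5.01, Axin2 5.77 and 6.65, and Rnf43 2.95 and 2.40. Rnf43 was below the other 3 in both libraries, and those 3 changed order between the libraries.

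Of the nuclear genes, Ctnnb1 had 7.07 and 7.56. Its peak lay 4155 and 4135 bp inside the GENCODE gene model, at a start with protein-coding transcripts, and no peak stood at the GENCODE 5′ end. Tcf7l1, mainly a repressor, had 5.94 and 4.78, and Tcf7l2 had 4.30 and 4.49. The 2 values of Tcf7l1 came from different promoter regions. Its region at -347 bp had 5.94 and 4.03, and the one at -47 bp had 3.39 and 4.78. Lef1, which in many tissues is itself a target of the pathway, was far lower at 0.807 and 0.547, with its strongest peak at an internal start 1970 and 1980 bp from the 5′ end. The 2 values of Lef1 lay below every value of the other 3 nuclear genes. Over all roles, 6 of 36 open members (16.7%) had the middle of their strongest peak over 500 bp from the 5′ end in both libraries. All 6 lay at internal starts. By the same distance, counted in either direction and without a check for an internal start, the share of all open genes was close, at 15.6%.

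All 36 open members lay within 2-fold between the libraries, as did 13269 of 13527 open genes. Replicate 2 was the higher in 16 of 36 members, against 8326 of 13527 open genes. The median log2 ratio of replicate 2 to replicate 1 was -0.05 with an SD of 0.41 over members, against 0.11 with an SD of 0.42 over all open genes. Differences of the size seen between Wnt4 and Wnt2 therefore exceed the spread between libraries, and those between neighbours such as Wnt11 and Wnt5a do not.

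CpG-rich promoters are open in most tissues, so promoter state was read against the observed-to-expected CpG ratio in 1 kb around the annotated 5′ end. At a ratio of 0.6 or more, 31 of 37 members (83.8%) were open in both libraries, against 93.0% of all such genes. Below 0.6, 5 of 14 members (35.7%) were open, against 35.7% of all such genes. The 6 CpG-rich members that were not open in both were Wnt3, Wnt3a, Wnt9b and Sfrp5, which had no peak, and Wnt2b and Rspo1, which had a peak in 1 library. Receptors all had a ratio of 0.6 or more, whereas only 3 of 8 secreted inhibitors and 13 of 19 ligands did. Within the CpG-rich members, 12 of 12 receptors and 9 of 13 ligands were open. Ctnnb1 combined a low ratio of 0.380 at its GENCODE 5′ end with a strong internal peak.

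**Figure D2:**
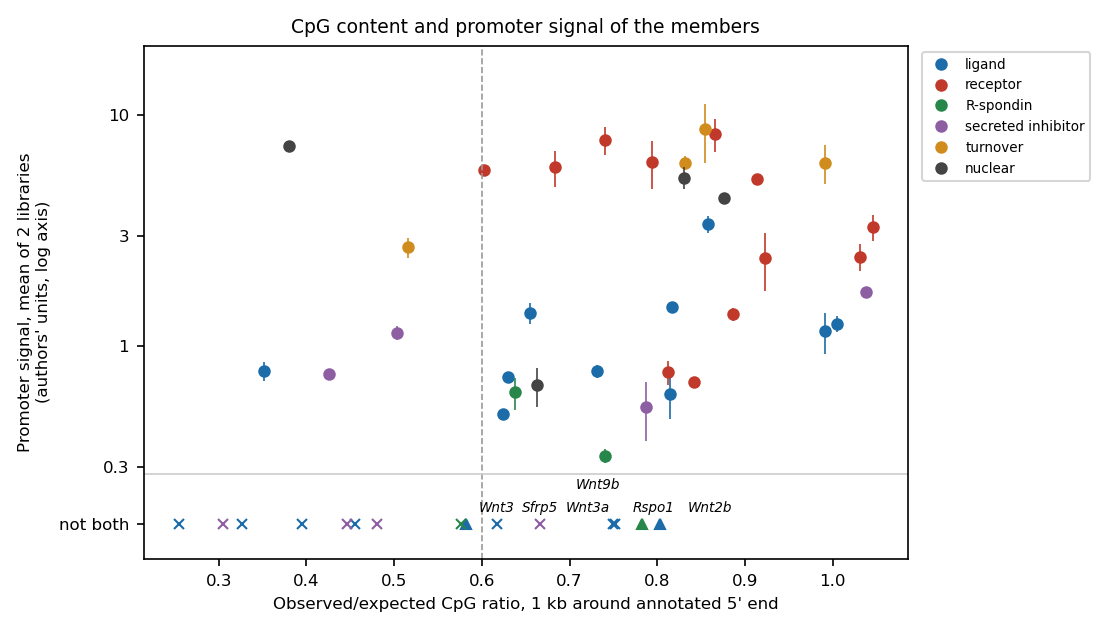
Promoter signal (vertical log axis, authors' units; dots are means of the 2 libraries and lines join their values) against the observed-to-expected CpG ratio in 1 kb around the annotated 5′ end. Members not open in both libraries are in the bottom row (triangle, a peak in 1 library; cross, in none), and 6 of them lie right of the dashed line at 0.6.

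Beyond promoters, each member's window was the gene body and 10 kb on either side. These windows held 345 open regions, of which 201 (58.3%) were shared by both libraries, against 57.7% of all regions. Another 83 were in replicate 1 only and 61 in replicate 2 only. Of the 201 shared regions, 66 lay in introns of the member, 58 at its promoters, 48 in the flanks, 17 in exons and 12 at promoters of other genes. Regions over 2 kb from any protein-coding start made up 95 of them (47.3%), against 61.8% of all shared regions. By construction, each window holds a promoter.

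The median member had 3 shared regions in its window, and the median gene 2. The windows were of similar size, with medians of 42.7 kb and 37.4 kb, and the median density was 0.585 regions in 10 kb for members and 0.449 for all genes. With all genes in 12 bins of window size, 30 members had more shared regions than the median of their bin, 11 had as many and 10 had fewer. The bin medians were small whole numbers, from 0 to 6, and the same split was not counted over all genes. No excess of members over genes of like window size is therefore read from these counts. Only Wnt3 and Dkk4 had no shared region, 3.92% of members against 21.2% of all genes. Tcf7l1 had the most with 17, followed by Wnt5b with 12, Znrf3 and Tcf7l2 with 11 each, Lrp5 with 10, Wnt10b with 9 and Wnt10a with 8.

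**Figure D3:**
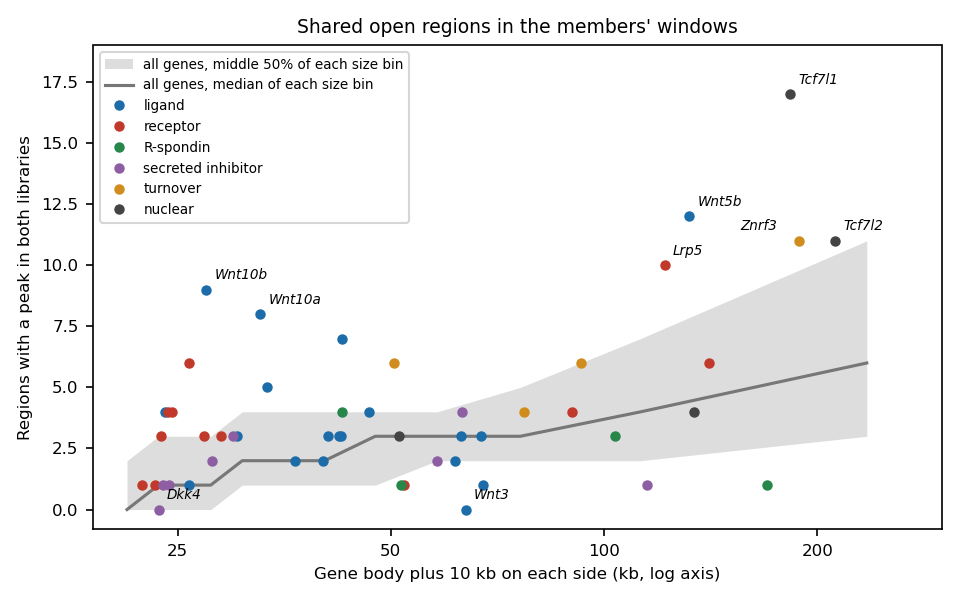
Shared regions in each member's window (vertical axis, count) against the size of the window (horizontal log axis, kb), coloured by role. The grey line and band are the median and middle 50% of all genes in 12 bins of size; Wnt10b and Wnt10a, with 9 and 8 regions in small windows, and Tcf7l1 with 17 lie above the band.

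Wnt10a had no promoter peak in either library, yet its window held 8 shared regions, 7 of them distal. It lies 6.19 kb from Wnt6, and the windows of this pair share 2 regions. The strongest site of Wnt10a was 16785 bp from its 5′ end, beyond its last exon, at 5.45 in replicate 1 and 2.47 in replicate 2. Wnt6 resembled it in having its strongest site away from its starts: a region in its first intron, 1419 bp from the 5′ end, had 3.81 and 5.32, and a further intron region at 7349 bp had 0.861 and 2.51. The intron site at 1419 bp exceeded the promoter peaks of Wnt6 in both libraries.

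Some members without a promoter peak in both libraries had a shared region just beyond the 500 bp limit. Wnt7b had one at -768 bp, at 2.24 and 1.19, whose nearer edge was 668 bp from a start. Dkk2 had one at -1061 bp, at 0.829 and 0.539, Rspo1 one at -1379 bp, at 0.635 and 0.875, and Wnt1 one at -1722 bp, at 0.883 and 0.602. A region in an exon of Wnt8b, at 0.786 and 0.578, lay 1565 bp from a start. These are the 5 genes that a limit of 2000 bp adds to the 36. On the near side of the limit, the Wnt10b region had its edge 410 bp from a start, at 0.764 and 0.711. Of the other members without a peak, Rspo4 had 1 site, 33368 bp from its 5′ end at 1.47 and 0.680, Dkk1 had 1 at -5136 bp at 0.732 and 0.492, and Sfrp5 had 1 at 11551 bp at 1.18 and 0.563.

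At several open members the region at the start was one of a series. Wnt5a had 4 shared promoter regions, from 0.603 and 0.711 up to 1.54 and 1.24, then 2 intron regions and a flank site 28341 bp from the 5′ end at 1.54 and 1.90, which was the strongest region of Wnt5a in replicate 2. Axin2 had a second promoter region at 462 bp with 3.90 and 4.24 beside the one at 62 bp with 5.77 and 6.65. Znrf3 had 9 shared intron regions, between 0.495 and 2.36 in replicate 1 and between 0.305 and 2.00 in replicate 2, all below its strongest promoter region. Sfrp2 and Rspo3 were the reverse: a flank region of Sfrp2 at -1880 bp had 2.13 and 1.46, and an intron region of Rspo3 at 2876 bp had 2.20 and 1.24, each above the promoter in both libraries.

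The other linked ligand pairs were less alike. Wnt1 and Wnt10b, 11.7 kb apart, share 3 regions, among them a site at 1.53 and 1.93. The strongest region of the Wnt10b window, at 6.0 and 7.88, lies at the promoter of Arf3. Wnt3a and Wnt9a are 16.2 kb apart; Wnt3a had 2 intron sites, at 1.58 and 2.65 and at 1.86 and 2.84, without a promoter peak. Wnt3 and Wnt9b are 24.3 kb apart; Wnt3 had no shared region at all and Wnt9b had 3.

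**Figure D4:**
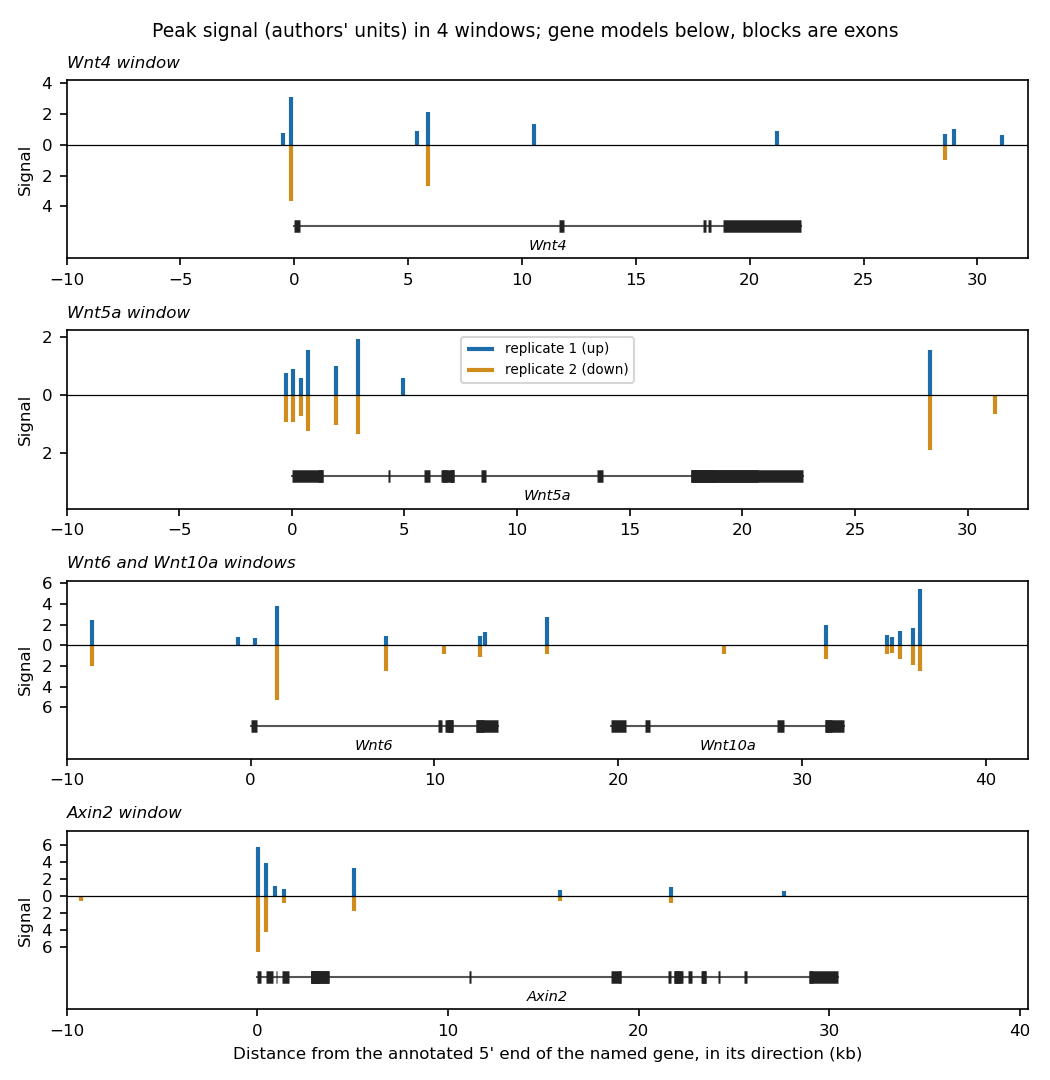
Peak signal (authors' units) of replicate 1 (upward) and replicate 2 (downward) in the windows of Wnt4, Wnt5a, Wnt6 with Wnt10a, and Axin2, by distance from the annotated 5′ end in kb; gene models are drawn below with exons as blocks. Wnt4 has a promoter peak and a lower intron peak, Wnt5a a row of peaks around its start, Wnt6 a tall intron peak, Wnt10a a cluster beyond its end, and Axin2 a pair of tall peaks at its start.

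By mean rank over both libraries, the strongest distal region of all windows lay in an intron of Lrp5, 47713 bp from its 5′ end, at 5.09 and 4.03; in replicate 1 the Wnt10a site was stronger. The Lrp5 region was above the promoter signal of Lrp5 in both libraries. It stood at percentile 89.7 of all shared regions. A second intron site of Lrp5, 32303 bp from the 5′ end, had 2.01 and 2.81. The first is shown in full, with bases in footprints of both libraries in capitals; it overlaps no annotated exon.
Lrp5 strongest distal region, chr19:3638721-3638980: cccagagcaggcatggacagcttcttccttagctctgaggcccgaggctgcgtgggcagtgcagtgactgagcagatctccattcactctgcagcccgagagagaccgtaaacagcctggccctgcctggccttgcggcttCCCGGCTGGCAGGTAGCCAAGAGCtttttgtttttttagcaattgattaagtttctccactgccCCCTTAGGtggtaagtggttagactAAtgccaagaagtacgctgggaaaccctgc

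The next distal regions lay mostly upstream of ligands that were weak or had no promoter peak. Wnt2b had a site at -6260 bp with 4.79 and 2.20, Wnt16 one at -7616 bp with 3.53 and 2.23, and Wnt8a one at -3962 bp with 3.93 and 1.88. Wnt9a had a site at -4027 bp with 2.87 and 2.20, and Wnt6 one at -8621 bp with 2.48 and 1.97. Each exceeded the promoter signal of its ligand in both libraries, or stood where no promoter peak was called. Wnt4 differed: its intron site at 5882 bp, with 2.12 and 2.66, was weaker than its promoter. This region is 620 bp wide and holds the letters TGANTCA, recognised by AP-1, 3 times, none of them in a footprint of either library. Over all shared regions, only 806 of 8262 such matches (9.76%) touched footprints of both libraries, so nothing particular to Wnt4 is read from this.

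Footprints were counted at the 201 shared regions. There were 469 in replicate 1 and 573 in replicate 2, or 2.33 and 2.85 for each region, against 2.30 and 2.62 over all shared regions. Of the replicate 1 footprints 57.8% (95% Wilson interval 53.3% to 62.2%, counting error only) overlapped one of replicate 2, against 58.0% over all shared regions. In the other direction the shares were 46.9% and 51.1%. The replicate 1 share over all regions lay inside the interval of the members. That interval treats footprints as independent, though many lie in the same region, so it is not a test of members against all regions.

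The shares of TCF/LEF letters at these genes depended on the letters and the window. CTTTGAT on either strand was found in 4 of 201 member regions (1.99%), against 2.49% of all shared regions; in 200 bp around each region's middle the shares were 1.99% and 2.15%. In the RefSeq promoter windows of 300 bp, which covered 33 members with 42 windows, 2 windows (4.76%) held it, against 3.18% of all 20061. CTTTGTT was in 2 member regions (0.995%) against 5.01%, but in 4 of the 42 promoter windows (9.52%) against 4.89%. In the shared regions, the matches lay at Axin2, Znrf3, Rnf43, Lrp6 and Fzd7, genes of the receptor and turnover steps. A CTTTGTT match in an Rnf43 intron region, 20467 bp from the 5′ end, is not among the stretches shown above. The genes of the promoter windows with matches were not listed, so this does not extend to them.

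At Axin2 the match lies in the 5′ untranslated part of an exon, 78 bp from the annotated 5′ end, in the strongest of its promoter regions. A footprint of 16 bp in replicate 1 covered 6 of its 7 bases, and one of 15 bp in replicate 2 covered all 7. At Znrf3 the match is in an intron, 147558 bp from the 5′ end, in a region with 2.36 and 1.87. A footprint of 8 bp in replicate 1 covered 5 of its 7 bases and an adjacent one of 19 bp a further 1, and one of 34 bp in replicate 2 covered all 7. The Lrp6 match, at -384 bp in its promoter region, had 2 bases in a replicate 1 footprint and 0 in replicate 2, and the Rnf43 intron match, 26831 bp from the 5′ end, touched none. So 2 of 4 member matches touched footprints of both libraries, against 7.34% of the 1662 matches in all shared regions, a comparison of very few sites. The Fzd7 match, at -407 bp, had 1 base in a replicate 1 footprint and 6 in one of replicate 2.

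**Figure D5:**
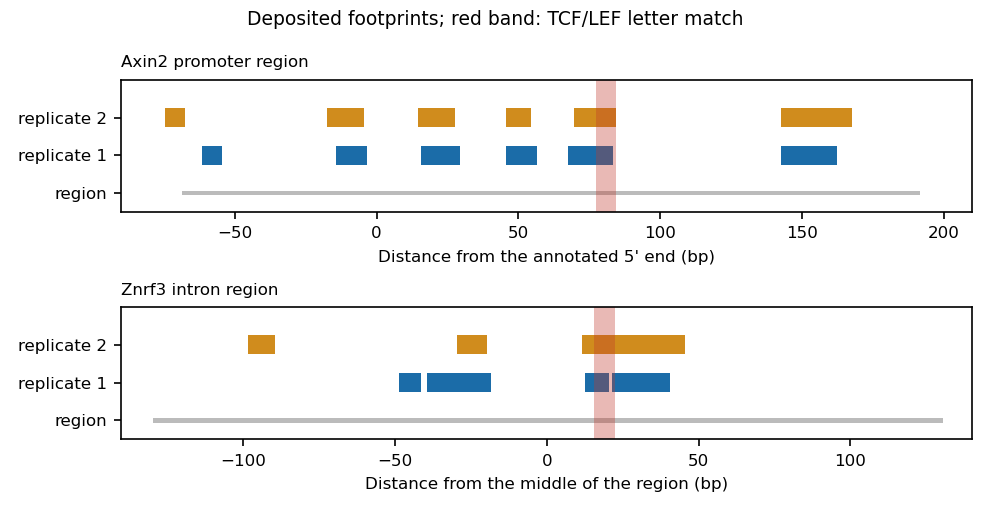
Deposited footprints of replicate 1 (blue) and replicate 2 (orange) in the Axin2 promoter region (distance from the annotated 5′ end, bp) and the Znrf3 intron region (distance from the region's middle, bp); the grey bar is the open region and the red band the TCF/LEF letter match. In both regions the match lies in or across footprints of both libraries.

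NR5A proteins, among them the steroidogenic regulators Nr5a1 and Nr5a2, recognise CAAGGTCA. These letters were in 6 member regions (2.99%), against 5.36% of all shared regions, and 2 of the 7 matches touched footprints of both libraries, against 22.9% overall. Those 2 sites are shown, with bases in footprints of both libraries in capitals, because both libraries place footprints on them. The Lrp5 site is the intron region at 32303 bp, and the Tcf7l1 site, at 0.883 and 2.20, lies in the flank beyond its last exon.
Lrp5 NR5A-match window, chr19:3654201-3654268: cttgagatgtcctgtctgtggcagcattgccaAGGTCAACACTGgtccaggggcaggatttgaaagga
Tcf7l1 NR5A-match window, chr6:72623781-72623842: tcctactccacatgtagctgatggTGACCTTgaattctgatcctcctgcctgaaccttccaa
Footprints covered 6 of the 8 letters in replicate 1 and all 8 in replicate 2 at Lrp5, and 7 and 8 at Tcf7l1.

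Of the other letters, 4 of 5 were less frequent in member regions than in all shared regions. TGANTCA was in 7.96% of member regions against 11.3%, AGATAA, recognised by GATA factors, in 6.47% against 11.2%, and GGAATG, recognised by TEAD factors, in 12.4% against 13.4%. TGTTTAC, recognised by forkhead factors, was in 1.99% against 3.38%. The exception was GGGCGG, the GC box recognised by SP and KLF factors. It was in 35.3% of member regions against 27.9%, and in 71.4% of member promoter windows against 48.0%. Member regions were less often distal than all shared regions, at 47.3% against 61.8%. A CpG ratio of 0.6 or more was found at 37 of 51 members, against 10059 of 21728 genes. Whether this make-up accounts for the shares of letters was not tested. None of the 14 GATA, 29 TEAD and 4 forkhead matches in member regions touched footprints of both libraries. Such contact was rare over all shared regions too, at 223 of 8081 GATA, 710 of 9593 TEAD and 67 of 2238 forkhead matches. The member matches are few and the difference was not tested, so no lack of footprints at members is read from it.

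Several distal footprints held the same kind of letters, which led to a search for the core recognised by the insulator protein CTCF, written with ambiguity letters over 11 bases and chosen after the values were seen. It was in 14 of 201 member regions (6.97%), against 7.85% of all shared regions. Of these 14 matches 12 (85.7%) touched footprints of both libraries, against 74.6% of all matches, and 6 lay wholly inside footprints of both; 11 of the 14 were in distal regions. A match at 3 members is shown with 30 bases on either side and bases in footprints of both libraries in capitals: the Wnt10a site beyond the gene, the Axin2 intron site at 5052 bp (3.22 and 1.82), and the Wnt5a intron site at 2941 bp (1.94 and 1.34), which is the strongest region of Wnt5a in replicate 1.
Wnt10a CTCF-match window, chr1:74808273-74808343: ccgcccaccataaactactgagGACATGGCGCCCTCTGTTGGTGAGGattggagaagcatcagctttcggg
Axin2 CTCF-match window, chr11:108925365-108925435: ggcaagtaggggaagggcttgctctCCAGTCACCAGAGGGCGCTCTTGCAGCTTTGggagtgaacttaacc
Wnt5a CTCF-match window, chr14:28507678-28507748: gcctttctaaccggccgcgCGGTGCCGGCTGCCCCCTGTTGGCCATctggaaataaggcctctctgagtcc

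Member regions with this core differed between the libraries. In 12 of the 14, replicate 1 was the higher, with a median ratio of replicate 1 to replicate 2 of 1.93. In the 187 member regions without it, replicate 1 was the higher in 106 (56.7%), with a median ratio of 1.03. The same held over all shared regions, where replicate 1 was the higher in 92.0% of the 5091 regions with the core and in 48.5% of the 59784 without. The strong distal sites of Wnt10a, Wnt8a and Axin2, all with the core, thus belong to a class of sites whose signal differed between the libraries across the genome; the cause was not tested.

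Of the other genes of the pathway, 55 of 56 listed symbols were found. At their promoters 48 (87.3%) were open in both libraries, against 62.3% of all genes, with a median signal of 3.09. By mean signal the strongest were Tle4, a co-repressor of TCF/LEF proteins, at 17.3 and 24.7, Btrc, the ubiquitin ligase subunit that recognises β-catenin, at 13.7 and 20.5, and Tle1, another co-repressor, at 10.5 and 22.3. The kinase gene Gsk3b, at 11.2 and 20.7, was above Tle1 in replicate 1 and below it in replicate 2. Of the R-spondin receptors, Lgr4 had 10.1 and 12, Lgr5 had 0.893 and 0.797, and Lgr6 had 0.711 in replicate 2 only. Wls and Porcn, which all cells need to secrete WNT ligands, were open, at 2.24 and 2.6 and at 3.15 and 2.84. Tle2, Sost, Notum, Sostdc1, Kremen2 and Ndp had no promoter peak. Of these 6, Sost, Notum, Sostdc1 and Ndp encode secreted proteins.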

How the data were processed

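The 2 libraries were analysed from the peak, footprint and false discovery rate lists that the authors deposited for each library, on build mm10 per the labels. Neither aligner, callers, versions nor the mapping of CAST alleles is stated in the labels or file headers. The deposited signal of each peak is the authors' depth-scaled value; all values were whole multiples of 1 step per library (within 0.05 of a step). In the deposited peak lists the columns for p-value or q-value are unfilled, and the deposited p-value label of footprints is the constant 0.01. Deposited false discovery rates, listed only under 0.05, were used at gene starts. The members, lists, letters and alternatives were chosen with earlier results of these data known, and no statistical test was made, since there is 1 group.

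Tools were samtools 1.23.1, pysam 0.24.0, pandas 2.3.3, NumPy 2.4.6, SciPy 1.17.1 and Matplotlib 3.10.9 under Python 3.11.15. Peaks on the autosomes and X (95860 and 83934 of the longer lists) were read against GENCODE M21. For symbols found more than once, only the first gene model was kept. Regions were merged peaks, shared where they held a peak of both libraries overlapping by at least 1 bp. Sequences came from RefSeq GRCm38.p6, and letters were searched on both strands without mismatch. Values are given for every member with a promoter peak in at least 1 library, the 10 strongest distal shared regions by mean rank, and the 3 strongest and the unopened genes of the list of other pathway genes; further sites, and the CTCF core, were chosen after their values were seen. The functions were tested on simulated data with planted peaks and letters. Alternatives were the shorter lists, other promoter and window sizes, equal numbers of peaks, stricter overlap, other letters and each replicate left out.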

Additional observations from a re-analysis of the deposited data

How the results depend on the processing

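No paired analysis was possible because there is 1 group. The number of members open at promoters in both libraries, 36, was 27 with the shorter lists, 33 with promoters of 250 bp either side or the annotated 5′ end only, 41 with 2000 bp, 35 with equal numbers of peaks, and 36 to 39 with 1 replicate left out. The 9 members lost with the shorter lists were Dkk3, Lef1, Lrp5, Rspo2, Sfrp2, Wnt10b, Wnt2, Wnt6 and Wnt7a. The median promoter signal of open members, 1.6, moved to 3.27 with the shorter lists, which leave out those 9 members. For open members it was 1.72 with 250 bp or the 5′ end only, and 1.80 with 2000 bp. It was 1.54 to 1.57 with 1 replicate left out, where the other replicate alone defines open members. Of the pathway list, 46 to 52 genes were open under these settings.

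The 201 shared regions in member windows fell to 124 with the shorter lists and to 132 in gene bodies alone, and numbered 388 with 50 kb either side. The median per member was 1 in gene bodies alone and 7 with 50 kb, and 4 to 5 with 1 replicate left out, where any peak of the other counts. The share of footprints with a partner, 57.8%, was 41.2% at an overlap of 50% of each footprint, 64.0% with the shorter lists, and 46.9% with replicate 2 as the base. The 4 regions with CTTTGAT became 2 for CTTTGTT. With 2 libraries of unknown absolute depth, weak or missing peaks limit what can be said of single genes.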
